A study of Mus musculus with 54 samples.

Results

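The comparison described here sets 3 poly(A) RNA-seq libraries of round spermatids from BORIS KO mice (*Ctcf*+/+ *Boris*-/-) beside 3 from wild type mice (WT, *Ctcf*+/+ *Boris*+/+). These are 6 of the 54 samples of the series, chosen by the genotype and cell type in their titles. All are labelled C57BL/6 testis, from mice 3 months old. Cells of 4 mice were pooled in each germ cell preparation, and round spermatids were then purified by elutriation and by sorting on a DNA dye. The study also profiled spermatocytes and whole testis of the same genotypes, mice with a single *Ctcf* allele (CTCF HET, *Ctcf*+/- *Boris*+/+), and the compound mutant that lacks *Boris* and carries a single *Ctcf* allele (CM, *Ctcf*+/- *Boris*-/-). Those samples are used below only where a round spermatid gene was measured again in libraries that the comparison did not use. The knockout is not limited to spermatids, so round spermatids of BORIS KO mice descend from spermatocytes that also lacked *Boris*. Whether the 3 libraries of a genotype came from separate preparations is not stated in the sources used here, so the p-values measure the spread between these libraries.

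CTCF is a zinc finger protein that binds DNA throughout the genome, where it meets cohesin, the ring complex that holds chromatin loops. BORIS, encoded by *Ctcfl* (*Boris*), is its germline paralog. It has nearly the same zinc fingers, so that both proteins recognise the same DNA core, but different ends. Round spermatids are the haploid cells that follow meiosis. They transcribe genes for the acrosome, the flagellum and the protamines, store many of these messages for later translation, and keep messages made earlier in spermatocytes.

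Depth did not separate the genotypes. The WT libraries held 50861159 to 98545423 counts and the BORIS KO libraries 64672742 to 70828024. WT replicate 1 stood apart from the other WT libraries, with a correlation of 0.974 to each in log2 CPM (counts per 1000000 counts of a library, scaled by TMM), against 0.985 between WT replicates 2 and 3 and 0.99 to 0.996 among the BORIS KO libraries. All 8 round spermatid markers were detected, with a summed level of 999 to 1215 CPM in WT and 665 to 1244 CPM in BORIS KO. Markers of the supporting and blood cells of the testis were low in both genotypes: the 7 Sertoli markers summed to at most 1.3 CPM, the 6 Leydig markers to at most 1.4 CPM and the 7 macrophage and blood markers to at most 2.15 CPM, with *Insl3* and *Hba-a1* at 0 in all 6 libraries. The 6 peritubular and stromal markers summed to 3.39 to 6.12 CPM in WT and 5.63 to 6.4 CPM in BORIS KO. Of 5 tested, 1 was called higher, and 1 with the offset. The 7 markers of meiotic cells summed to 1332 to 1680 CPM in WT and to 799 to 860 CPM in BORIS KO.

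Most tested genes differed between the genotypes, and the direction followed base composition. Of 15513 genes tested with edgeR's quasi-likelihood test, 8658 (55.8%) passed an adjusted p under 0.05, of which 4162 (26.8%) were higher and 4496 (29%) were lower in BORIS KO. Among genes whose exons hold at most 40% G and C, 79.1% were lower and 0.761% higher. Among those with over 55% G and C, 2.97% were lower and 64.6% higher. Over 14919 genes with an annotated position the correlation of log2 fold change with exon GC content was 0.68, given as a description since genes of a library share its preparation. The same trend is a property of whole libraries. Each gene's log2 CPM was taken as its deviation from the gene's mean over all round spermatid and spermatocyte libraries of the series. These deviations correlated with GC content at -0.234 to -0.0659 in the WT round spermatid libraries and at 0.344 to 0.404 in the BORIS KO ones. Because no BORIS KO library lay within the WT range, a library-wide difference in GC content and the genotype cannot be told apart for the genes that follow the trend.

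**Figure D1:**
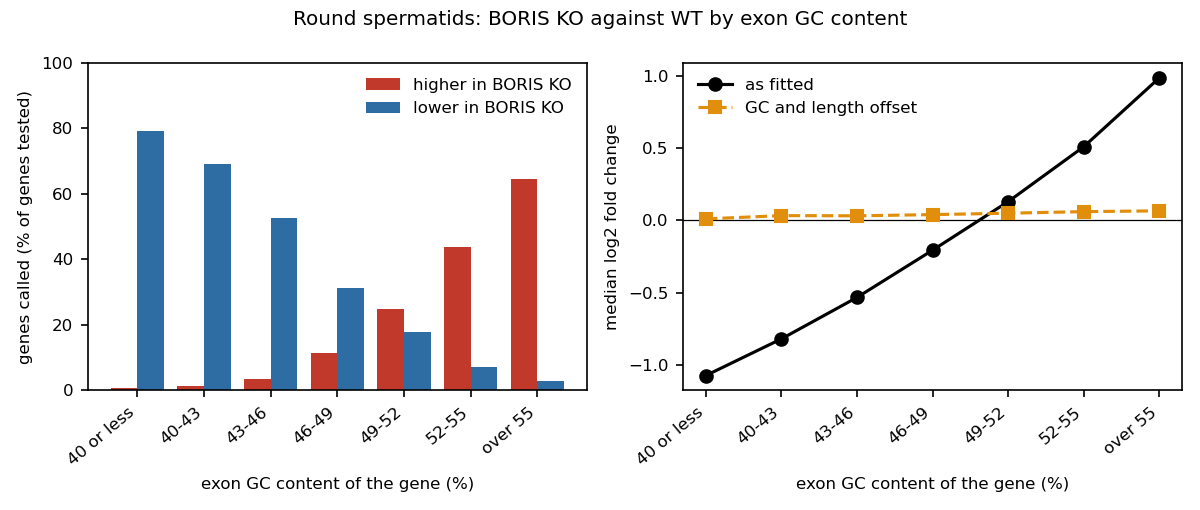
Left, the percentage of tested genes called higher (red) or lower (blue) in BORIS KO round spermatids, by exon GC content of the gene in percent. Right, the median log2 fold change of the same genes as fitted (black circles) and after an offset for each library's trend on GC content and length (orange squares). As fitted, the medians run from -1.07 in the class with the least GC to 0.98 in the class with the most, and with the offset they stay between 0.01 and 0.07.

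Each result was therefore fitted again with each library's smooth trend on GC content and exon length removed (the offset fit). This fit called 5609 of 14919 genes (37.6%), 2846 higher and 2763 lower. Fits with and without the offset called 3843 genes (25.8%) in the same direction, 1879 higher (12.6%) and 1964 lower (13.2%), and 369 (2.47%) in opposite directions. A change in fitted level is given below as log2 fold change ± SE of BORIS KO against WT, with edgeR's adjusted p over all genes tested, and the offset value follows beside it. Levels are in CPM, by library in the order of replicates 1, 2 and 3. In bulk RNA, fewer cells of a kind and less RNA per cell cannot be told apart.

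The targeted gene was measured first. *Ctcfl* reached 2.88, 5.25 and 3.47 CPM in the WT libraries and 2.11, 2.21 and 2.42 CPM in the BORIS KO libraries. The groups did not overlap, but reads on the gene persisted in BORIS KO at 2.25 ± 0.159 CPM (SD, n = 3) against 3.87 ± 1.24 in WT. The change was -0.78 ± 0.25 (adjusted p = 0.0248), and -1.17 with the offset (adjusted p = 0.00533). The call was lost without WT replicate 2 (-0.52, adjusted p = 0.0833), with any BORIS KO library left out (adjusted p = 0.052 to 0.0852), with all 4 genotypes in one fit (adjusted p = 0.13) and without the low-count filter (adjusted p = 0.0567). The exact permutation test over the 6 libraries gave the smallest p that 3 against 3 allow, 0.1 (two-sided). Which exons the *Boris* allele lacks is not given in the sources used here, so these counts do not check its deletion. *Ctcf* itself, still carried as a pair of intact alleles, stood at 49.3, 32.1 and 30.2 CPM in WT and 27.5, 25.8 and 29.4 CPM in BORIS KO. Its change of -0.43 ± 0.18 did not pass (adjusted p = 0.0693), nor did the offset value of -0.33 (adjusted p = 0.172), and without WT replicate 1 it was -0.17.

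The start of *Ctcfl* carried the strongest BORIS peak among the named genes (mm9, chr2:172944819-172945523, height 1808 in the WT germ cell list) with a CTCF peak over it. It is shown because it is the target's own promoter, and because it holds a match to a CTCF-like core, a short form of the sequence that both proteins bind, searched as CC, any 3 bases, AG, any 2 bases and GGC. In capitals is the match, on the plus strand at chr2:172944976-172944995, in the untranslated part of an exon of *Ctcfl* and in an intron of the neighbouring gene.
Ctcfl: aggaCCCCAAGGGGGCgctg
That neighbour, *1300015D01Rik*, lies on the opposite strand and overlaps *Ctcfl*. It fell from 1.32, 6.62 and 6.26 CPM in WT to 0.85, 0.886 and 0.856 CPM in BORIS KO (-2.44 ± 0.52, adjusted p = 0.00351, offset -2.64). Since use of strand in counting is not stated, reads of the overlapping pair cannot be told apart. WT replicate 1 held the lowest of the WT values, and the change was -2.89 without it.

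Of the 8 genes within 200 kb of *Ctcfl* in the annotation, this neighbour included, *Spo11* had the smallest adjusted p in both fits. SPO11 is the enzyme that makes the DNA breaks that start meiotic recombination. Its gene lies 100 kb away on the plus strand, at chr2:172803201-172819077 in mm9. It stood at 60.9, 64.1 and 69.4 CPM in WT and at 12.7, 12.4 and 9.87 CPM in BORIS KO. All WT libraries lay far above all BORIS KO libraries, and the change was -2.47 ± 0.13 (adjusted p = 3.61e-06), with -2.12 by the offset fit. Of the other 6 genes, 2 were called, both higher, and neither passed with the offset. *Rae1*, a nuclear pore and spindle factor 77.9 kb away, was at 42.2 to 50.4 CPM in WT and 57.1 to 63.8 CPM in BORIS KO (0.44 ± 0.11, adjusted p = 0.00758, offset 0.13 with adjusted p = 0.321), and *Pmepa1* changed by 0.73 (adjusted p = 0.0133, offset 0.06). Farther out, at 449 kb, *Ankrd60* fell by 0.59 on the log2 scale (adjusted p = 0.000717), and by 1.53 with the offset. It lies outside the 200 kb window and was chosen after its values were seen. The genes between are not described here, and 55.8% of all genes tested were called.

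*Spo11* was part of a wider decrease of genes of meiotic chromosomes in these round spermatid libraries. Of 29 tested genes of the chromosome axis and recombination, 18 were lower (62.1%), 2 higher (6.9%) and 9 not called. The median was -1.09 beside -0.01 over all genes tested. For this and the later lists, the shares over all genes were 29% lower and 26.8% higher, or 18.5% and 19.1% with the offset. Called alike in both fits were 13.2% lower and 12.6% higher. With the offset 10 were lower and 3 higher, the median was -0.33 beside 0.05 over all genes, and 8 were lower in both fits. The list is low in GC, with a median of 44.4% beside 49.7% over all genes. In BORIS KO whole testis its median was 0.08 over 28 genes, with none called, where 9 of all 16344 genes were called. In spermatocytes its median was -0.19 over 27 genes. *Smc1b*, the meiosis-specific SMC subunit of cohesin, was at 1933, 1958 and 1979 CPM in WT and at 458, 466 and 515 CPM in BORIS KO. The WT libraries lay close together, and the 4.08-fold decrease (-2.03 ± 0.08, adjusted p = 2.8e-06) was 2.04-fold with the offset. *Sycp2*, a component of the axial element, fell from 669, 877 and 896 CPM to 234, 231 and 228 CPM (-1.82 ± 0.12, offset -0.57). *Tex15*, needed for loading of recombinases, fell from 419, 467 and 435 CPM to 160, 172 and 167 CPM (-1.41 ± 0.08, offset -0.38). *Stra8*, which starts meiosis in response to retinoic acid, was low throughout, at 3.25, 10.7 and 10.2 CPM against 2.25, 2.82 and 4.13 CPM (-1.38 ± 0.42, adjusted p = 0.0197, offset -1.45), and it lost its call without WT replicate 2 or 3 or BORIS KO replicate 1 or 2.

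More genes of general cohesin fell than rose. Of 20 tested genes of cohesin, its loaders and insulator factors, 14 were lower (70%) and 2 higher (10%), with a median of -0.63. The list shares 4 meiotic subunits with the one above, of which 2 were lower, and of its other 16 genes 12 were lower and 2 higher, or 6 and 2 with the offset. With the offset 8 were lower and 3 higher (median -0.27), and 7 were lower in both fits. *Smc3*, the partner of the SMC1 subunits in all cohesin rings, was at 406, 447 and 452 CPM in WT and 132, 126 and 141 CPM in BORIS KO. Its groups were far apart, with a change of -1.71 ± 0.09 (adjusted p = 3.61e-06) and -0.88 by the offset fit. *Nipbl*, the loader of cohesin, fell from 2020, 1895 and 1728 CPM to 816, 851 and 764 CPM (-1.22 ± 0.08, offset -0.55). *Stag2*, an X-linked cohesin subunit, fell from 90.1, 90.1 and 90.6 CPM to 37.9, 40.5 and 40.3 CPM (-1.19 ± 0.09, offset -0.28 with adjusted p = 0.0372). *Smc6*, the SMC protein of a related repair complex, went from 1073, 1091 and 1177 CPM to 318, 303 and 292 CPM (-1.87 ± 0.08, offset -0.96).

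The genes with the smallest adjusted p among those that fell were of several kinds. *Ccdc110*, a testis-expressed coiled-coil gene, gave 879, 885 and 878 CPM in WT and 240, 231 and 215 CPM in BORIS KO, among the least variable values of the named genes. It fell 3.84-fold (-1.94 ± 0.08, adjusted p = 2.8e-06), and 2.83-fold with the offset. *Cetn4*, a centrin of cilia and basal bodies, fell from 2867, 3339 and 3579 CPM to 644, 600 and 666 CPM (-2.36 ± 0.1, offset -1.8). The others act on RNA or the cytoskeleton. *Zranb2*, a splicing factor, fell from 756, 943 and 1000 CPM to 120, 119 and 124 CPM, or 7.46-fold, and 3.68-fold with the offset. *Ppig*, a nuclear cyclophilin, fell 6.96-fold and 3.46-fold with the offset. *Upf3b*, a factor of nonsense-mediated decay on the X chromosome, fell 5.54-fold and 3.32-fold with the offset. *Hnrnpc*, *Zfp326*, *Npm1*, *Slmap* and *Rock1* completed this group, with log2 fold changes between -2.41 and -1.59 as fitted and between -1.73 and -0.6 with the offset. By the rule that named them their groups did not overlap, which held for 63.8% of all tested genes.

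**Figure D2:**
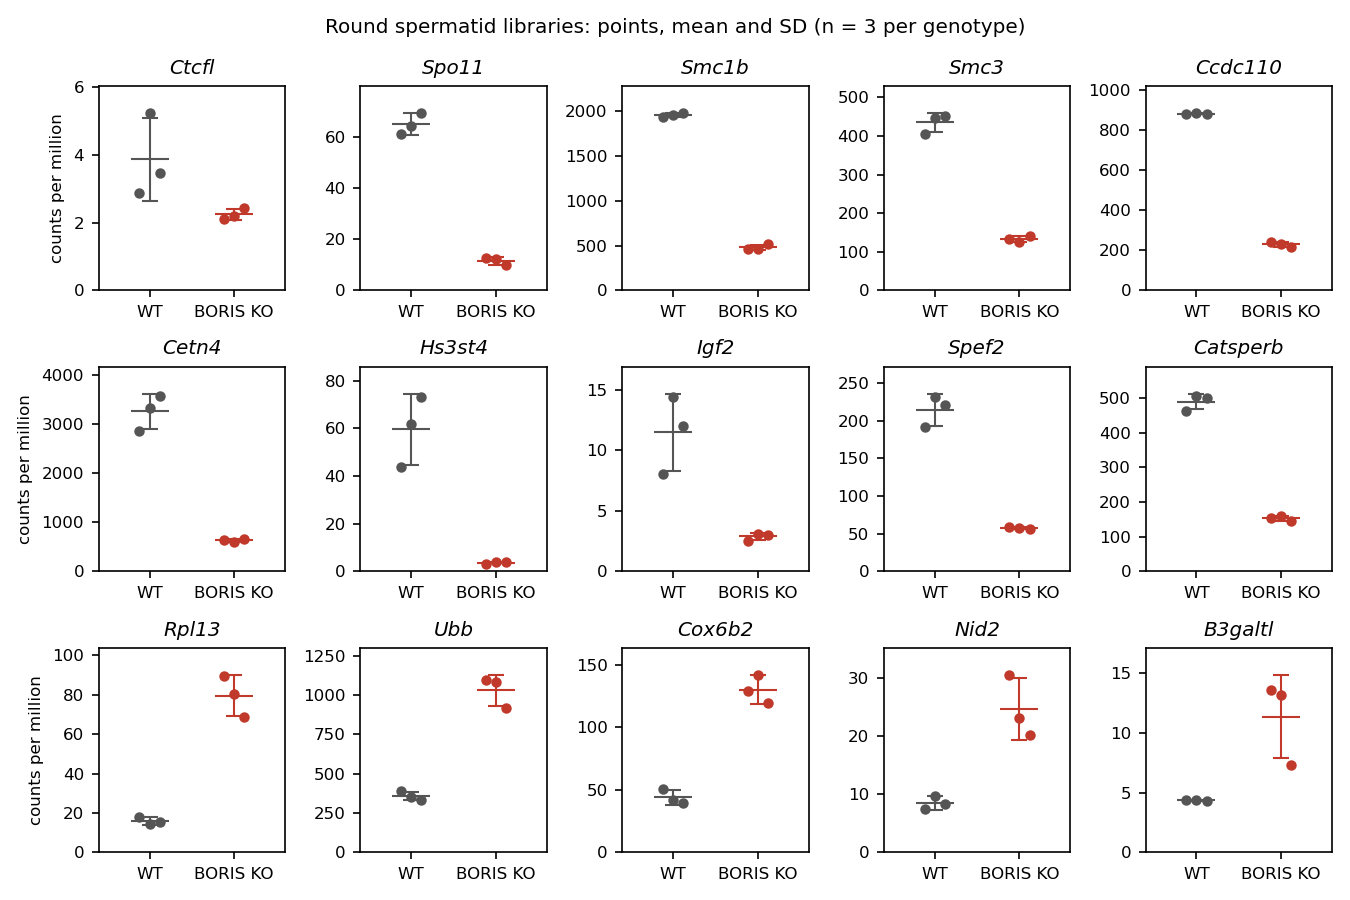
Level in CPM of 15 named genes in each round spermatid library, WT in grey and BORIS KO in red, with the mean (horizontal line) and SD of the 3 libraries of a genotype. Axes start at 0. The BORIS KO libraries lie below every WT library in the first 10 panels and above every WT library in the last 5.

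Some genes fell although their base composition would place them with the genes that rose. Of 3263 genes with over 55% GC, 97 (2.97%) were lower. All 97 were also lower in the offset fit, which is no separate support, since the offset moves genes of this class further down. *Hs3st4*, which makes a heparan sulfate 3-O-sulfotransferase, led them, at 43.9, 61.9 and 73.4 CPM in WT and 3.31, 3.76 and 3.78 CPM in BORIS KO. The difference was 16.4-fold (-4.04 ± 0.2, adjusted p = 3.28e-06) and 29.4-fold with the offset. *Gata6*, a zinc finger transcription factor, fell from 15.6, 18.5 and 19.6 CPM to 3.13, 3.56 and 3.12 CPM (-2.45 ± 0.15, offset -3.28). *Fam83e* fell from 162, 128 and 141 CPM to 35.2, 37.7 and 42.5 CPM (-1.9 ± 0.12, offset -2.82). The imprinted growth factor gene *Igf2* followed the same pattern at a lower level, with 8.06, 14.4 and 12 CPM against 2.55, 3.1 and 3.05 CPM (-1.98 ± 0.23, adjusted p = 0.000118, offset -2.81). In the opposite corner, 28 of 2323 genes with at most 43% GC (1.21%) were higher. All 28 were also higher with the offset, which moves genes of this class up and so is again no separate support. *Hnrnpa3*, an RNA-binding protein gene, was at 0.331, 0.198 and 0.518 CPM in WT and 1.77, 1.44 and 1.55 CPM in BORIS KO (2.18 ± 0.36, offset 3.14). *Snrpf*, a core spliceosome gene, was at 0.594, 0.55 and 0.299 CPM and 3.07, 2.43 and 2.08 CPM (2.37 ± 0.32, offset 3.34). Both levels were low, and both genes were singled out after their values were seen, as were *Gata6* and *Fam83e*.

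Long nuclear RNAs depended on the WT library. *Malat1* was at 26.4, 247 and 203 CPM in WT and 13.9 to 15 CPM in BORIS KO, and *Kcnq1ot1* at 9.72, 95.2 and 80.3 CPM and 5.99 to 6.77 CPM. WT replicate 1 thus lay far nearer to the BORIS KO libraries than to the other WT libraries. The changes were -3.45 ± 0.76 for *Malat1* and -3.28 ± 0.75 for *Kcnq1ot1*, and -3.95 and -3.79 without WT replicate 1. The offset fit gave -2.69 for *Malat1* with an adjusted p of 0.0638, and did not hold *Kcnq1ot1*. *Stc1*, a secreted glycoprotein gene, had 1.37, 7.03 and 5.02 CPM in WT against 0.127 to 0.253 CPM (-4.61 ± 0.62, offset -3.81), with WT replicate 1 again the lowest of WT.

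Genes of the sperm tail fell more often than they rose in both fits. Of 36 tested axoneme and flagellum genes, 20 were lower (55.6%, beside 29% of all genes tested) and 9 higher (25%, beside 26.8%), with a median of -0.28. With the offset 21 were lower and 4 higher (median -0.34), and 15 were lower in both. *Spef2*, a central pair protein needed for the tail, fell from 191, 232 and 221 CPM to 58.3, 57.9 and 56.7 CPM (-1.9 ± 0.1, adjusted p = 3.61e-06, offset -1.07). *Meig1*, which acts in the manchette that carries cargo to the growing tail, fell from 4434, 5938 and 6366 CPM to 1928, 1882 and 2131 CPM (-1.49 ± 0.13, offset -1.05). *Spag17*, also of the central pair, showed a smaller change, from 1491, 1507 and 1481 CPM to 825, 860 and 756 CPM (-0.88 ± 0.07, offset -0.32). *Ccdc39*, a ruler of the axonemal repeat, fell by 1.52 on the log2 scale and by 0.46 with the offset. Among 14 tested ion channels and transporters of sperm, 7 were lower (50%) and 4 higher (28.6%), and the same 7 were lower in both fits. *Catsperb*, a subunit of the calcium channel CatSper, was at 464, 506 and 500 CPM in WT and 153, 160 and 146 CPM in BORIS KO (-1.68 ± 0.08, offset -0.48). *Catsper2*, a pore subunit of that channel, fell by 1.22 (offset -0.99), and *Kcnu1*, the potassium channel of sperm, by 0.98 (offset -0.55).

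The acrosome genes split. Of 30 tested, 17 were lower (56.7%) and 6 higher (20%), with a median of -0.3. With the offset 12 of 29 were lower and 7 higher, with 10 lower and 4 higher in both fits. *Spaca7*, of the acrosomal matrix, fell from 285, 309 and 342 CPM to 119, 108 and 126 CPM (-1.41 ± 0.1, offset -1.03). *Spaca1*, of the inner acrosomal membrane, fell from 341, 351 and 383 CPM to 178, 180 and 185 CPM (-0.99 ± 0.08, offset -0.51). *Spam1*, the sperm hyaluronidase, fell by 1.51 (offset -0.4), and *Dpy19l2*, which anchors the acrosome to the nucleus, by 1.12 (offset -0.27).

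Messages of the nuclear compaction program changed unevenly. Of 12 protamine, transition protein and spermatid histone genes, 3 were higher, 1 lower and 8 not called, with a median of 0.59 (offset 0.17). Their summed level was 604 to 700 CPM in WT and 454 to 1080 CPM in BORIS KO, so the BORIS KO libraries were widely spread. *Prm3*, an acidic protamine relative, was the lower gene, at 140, 85.3 and 90.8 CPM in WT and 38.2, 39 and 63.2 CPM in BORIS KO (-1.17 ± 0.24, adjusted p = 0.00284, offset -2.09). *Hils1*, a spermatid linker histone gene, rose from 58.9, 44.5 and 46.3 CPM to 80.1, 86.7 and 94.7 CPM (0.8 ± 0.13, offset 0.37). *Tnp2*, transition protein 2, was at 54.7 to 60 CPM in WT and at 76.4, 75.8 and 224 CPM in BORIS KO. BORIS KO replicate 3 set most of its fitted change of 1.13 ± 0.38 (adjusted p = 0.0331), which lost its call with the offset and with any WT library left out. Of 7 genes of the testis-specific serine kinase group, 3 rose and none fell, but with the offset 2 rose and 2 fell. *Tssk4* went from 106, 90.3 and 88.8 CPM to 146, 143 and 139 CPM (0.59 ± 0.1, offset 0.32).

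The regulators of spermatid transcription and message storage leaned lower, with 12 of 24 lower (50%) and 4 higher (16.7%), and 7 lower in both fits (29.2%). *Crem*, the activator of many postmeiotic genes, fell from 717, 880 and 832 CPM to 279, 292 and 274 CPM (-1.53 ± 0.09, adjusted p = 5.9e-06, offset -0.68). *Brdt*, the testis bromodomain protein that reads acetylated histones, fell from 1099, 1154 and 1205 CPM to 555, 516 and 556 CPM (-1.09 ± 0.08, offset -0.57). *Ybx2*, which coats stored messages, stood at 1570, 1511 and 1483 CPM in WT and 2760, 2636 and 2799 CPM in BORIS KO. Its call turned with the correction, from 0.84 ± 0.07 (adjusted p = 1.77e-05) to -0.4 (adjusted p = 0.0105), and its exons hold 62.5% GC. The heat shock and chaperone list had 12 lower and 7 higher of 31, with 7 lower in both fits, among them *Hspa4*, from 1258, 1355 and 1463 CPM to 542, 521 and 520 CPM (-1.36 ± 0.08, offset -0.98). Of 18 genes of the piRNA pathway and germ granules, 4 rose and 4 fell (22.2% each, below the 26.8% and 29% of all genes tested). *Piwil2* was higher (0.61 ± 0.12, offset 0.64) and *Tdrd3* lower (-1.68 ± 0.09, offset -0.77).

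**Figure D3:**
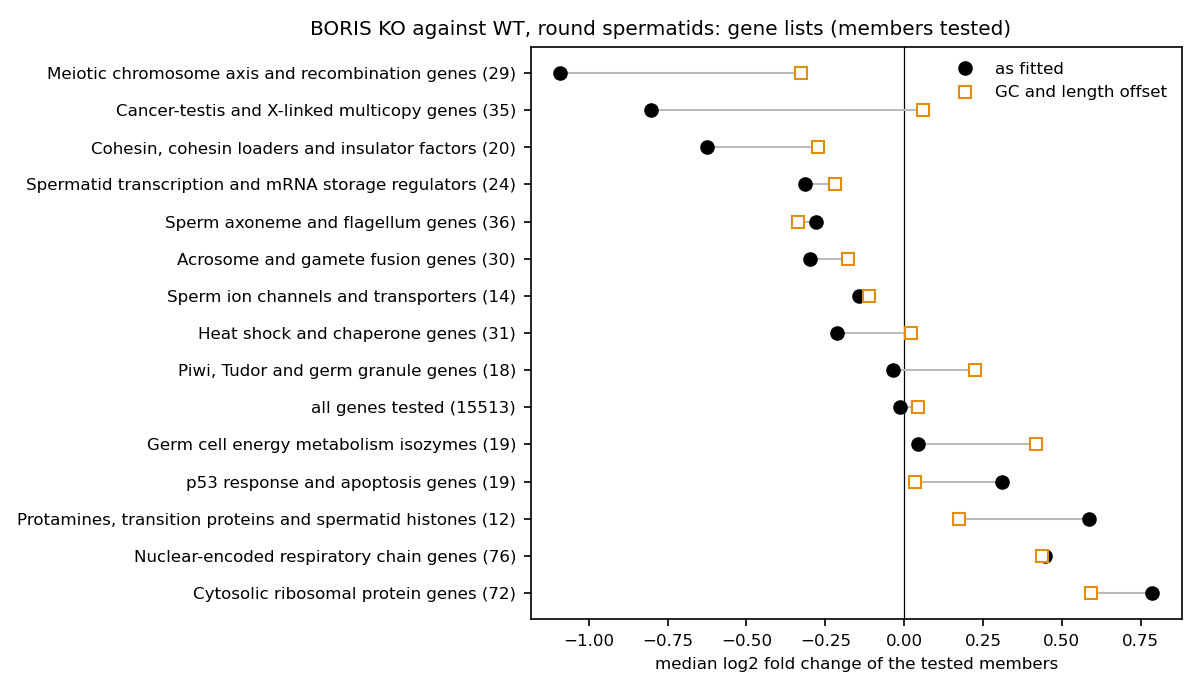
Median log2 fold change of BORIS KO against WT over the tested members of each gene list, as fitted (black circles) and with the GC and length offset (orange squares), with the number of members tested in brackets. Meiotic and cohesin genes lie below the median of all genes in both fits and ribosomal and respiratory chain genes above it, while the cancer-testis and X-linked list moves from -0.8 to 0.06.

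More genes of translation and respiration rose than fell. Of 72 cytosolic ribosomal protein genes tested, 50 were higher and 7 lower (median 0.79), and with the offset 45 were higher and 8 lower (median 0.59), with 39 higher in both fits. The list's GC content, 50.7% at the median, was near that of all genes. *Rpl13* rose from 18, 14.2 and 15.2 CPM to 89.6, 80.6 and 68.5 CPM (2.33 ± 0.14, adjusted p = 5.7e-06, offset 2.01). *Rps14* rose from 16.3, 8.75 and 11 CPM to 84.3, 84.6 and 59.6 CPM (2.66 ± 0.24, offset 2.43), and *Rpl27a* from 5.9 to 6.86 CPM to 26.3 to 33.4 CPM (2.21 ± 0.14, offset 2.3). *Rpl10l*, the autosomal copy that stands in for X-linked *Rpl10* in male germ cells, went the other way, from 240, 296 and 306 CPM to 113, 117 and 119 CPM (-1.27 ± 0.11, offset -1.32). Ribosomal protein genes have many near-identical processed copies in the genome, and how the counting treated reads shared with them is not stated, so the levels of single members are uncertain. Of 76 nuclear genes of the respiratory chain, 45 were higher and 9 lower, and 32 were higher in both fits. *Cox6b2*, the testis form of a subunit of complex IV, rose from 51, 41.5 and 39.3 CPM to 129, 142 and 119 CPM (1.56 ± 0.13, adjusted p = 2e-05, offset 1.05). *Cyc1*, cytochrome c1 of complex III, rose from 2.51, 2.29 and 2.43 CPM to 8.7, 7.74 and 8.07 CPM (1.76 ± 0.16, offset 0.88), whereas *Uqcrb* of the same complex fell from 209, 294 and 307 CPM to 48.5, 45.3 and 49.2 CPM (-2.5 ± 0.15, offset -1.45).

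Beside these lists, *Ubb*, a polyubiquitin gene, rose from 390, 349 and 336 CPM to 1092, 1083 and 918 CPM (1.53 ± 0.1, adjusted p = 7.2e-06, offset 0.88). *Agpat1*, an enzyme of phospholipid synthesis, rose from 134, 106 and 95.9 CPM to 390, 367 and 344 CPM (1.71 ± 0.13, offset 0.69), and *1700037H04Rik* from 138, 112 and 108 CPM to 405, 388 and 328 CPM (1.65 ± 0.12, offset 1). The actin-binding *Tmsb10*, with 61% GC, shows the size that a correction can take: 416, 421 and 434 CPM in WT, 812, 872 and 839 CPM in BORIS KO, 0.99 ± 0.07 as fitted and -0.12 with the offset (adjusted p = 0.398). Among p53 and apoptosis genes 6 of 19 (31.6%) rose and 4 (21.1%) fell, near the 26.8% and 29% of all genes tested, with 4 higher and none lower in both fits. *Trp53* rose from 1.7, 1.58 and 1.38 CPM to 3.44, 3.53 and 4.09 CPM (1.24 ± 0.2, adjusted p = 0.000697, offset 0.85), *Bcl2l1* by 1.01 ± 0.14 (offset 0.47), and the p53 target *Bbc3* from 0.044 to 0.171 CPM to 1.47 to 2.09 CPM (4.17, offset 2.93). Sums of longer somatic lists were 12.6 to 14.6 CPM in WT and 18.3 to 20.2 CPM in BORIS KO for 20 Sertoli genes, 8.31 to 12.2 CPM and 13.9 to 15.3 CPM for 14 peritubular and stromal genes, and 22.6 to 28.1 CPM and 35.7 to 40.2 CPM for 11 Leydig genes. These sums were higher in every BORIS KO library, and their part in the results above was not tested. *Scarb1* and *Fdx1* held most of the Leydig sum, and the other 9 genes of that list summed to at most 1.61 CPM. For 14 macrophage and blood genes the sums were 94.4 to 106 CPM in WT and 91.3 to 111 CPM in BORIS KO, of which *Aif1* held 84 to 96.6 CPM and 82.7 to 103 CPM.

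The counts on the sex chromosomes, which are low in GC, changed with the offset. Of 564 X-linked genes tested 247 were lower and 47 higher, with a median GC of 44.1%, beside 29% lower and 26.8% higher of all genes. With the offset 101 were lower and 60 higher, beside 18.5% and 19.1% of all genes. The X-linked median was then 0.009, beside 0.045 over all genes. On the Y chromosome 7 of 9 genes were lower (median -1.27, median GC 38.4%) and none were called in either direction with the offset. The cancer-testis and X-linked multicopy genes, many of which have near-identical copies, had 19 of 35 lower and none higher, and 3 of 33 lower and 2 higher with the offset.

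Of the genes the study itself names, 17 were tested, with 4 higher (23.5%) and 3 lower (17.6%), below the 26.8% and 29% of all genes tested. In both fits 2 were higher and 1 lower. The study names some of them for changes in libraries of this series, so the counts are no independent evidence. *Prss50*, reported as lower in BORIS KO testis, did not pass here (0.74 ± 0.32, adjusted p = 0.0773, offset -0.39), nor did *Kit* (0.25 ± 0.29, adjusted p = 0.491). *Mfi2*, reported as severely lower in CM testis, was called higher here (0.5 ± 0.13, adjusted p = 0.0102). With the offset its sign turned, to -0.35, and it did not pass (adjusted p = 0.0805). *Crisp2*, a cysteine-rich sperm protein, fell from 3702, 4241 and 4391 CPM to 1919, 2129 and 1828 CPM (-1.07 ± 0.09, adjusted p = 2.55e-05), but by the offset fit the change was -0.11 (adjusted p = 0.28). *Tcp11*, a gene of sperm capacitation, rose from 878, 622 and 580 CPM to 1596, 1585 and 1587 CPM (1.2 ± 0.14, offset 0.73), and *Dbil5*, a testis acyl-CoA binding protein gene, from 151, 132 and 129 CPM to 254, 255 and 254 CPM (0.89 ± 0.09, offset 0.78). *Prkar2a*, a regulatory subunit of protein kinase A, had 21.1, 30.8 and 35.9 CPM against 6.97, 7.29 and 20.5 CPM (-1.34 ± 0.4, adjusted p = 0.019). It lost its call with the offset (-1.47, adjusted p = 0.0543), with any WT library left out and without BORIS KO replicate 1 or 2.

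Genes with BORIS at their start did not move in a common direction. The BORIS and CTCF peaks were mapped in WT germ cells of mixed stages, not in round spermatids, and the lists have no replicate error. A BORIS peak lay within 1 kb of a start of 2756 of 14919 tested genes, of which 403 (14.6%) were higher and 372 (13.5%) lower in both fits, beside 12.6% and 13.2% of all 14919. Where BORIS but no CTCF peak was listed (596 genes) the shares were 13.1% and 16.1%, where both were listed (2160 genes) 15% and 12.8%, and with CTCF alone (2925 genes) 15.5% and 10.6%. As fitted without the offset, genes with BORIS and no CTCF were lower in 36.4% and higher in 28.2%, with a median GC of 48.6%, and genes with both were lower in 24.4% and higher in 35.7%, with a median GC of 51.5%. Genes with neither peak (9238) were lower in 31.2% and higher in 23.5%, with a median GC of 48.8%, so the 2 classes with more genes lower than higher were also those of lower GC. The CTCF-like core, searched on both strands with overlapping matches counted once for a region, occurred in 4112 of 7652 BORIS peaks as listed (53.7%), which run from 119 to 794 bp. In windows of 166 bp, the median length of these peaks, it occurred at the centres of 4013 peaks (52.4%) and in 1114 of 14919 promoters (7.47%).

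Round spermatid genes were then looked up in libraries that the comparison did not use. In spermatocytes, BORIS KO (n = 3) against WT (n = 2), edgeR called 8207 of 14338 genes (57.2%), and 43.2% of 13857 with the offset. Of 8072 genes called in round spermatids and tested there, 6104 were called in the same direction and 74 in the opposite one, or 3530 and 101 in the offset fits. The GC trend of this comparison had the same sign (r = 0.559 over 13857 genes). In whole testis, from total RNA depleted of ribosomal RNA and sequenced on another platform, r was 0.135 over 15695 genes and edgeR called 9 of 16344 genes (0.0551%), with 2717 at an unadjusted p under 0.05 and 386 (2.36%) by DESeq2. Of 8336 round spermatid genes tested there, 5 were called in the same direction and 1 in the opposite one. Testis libraries of replicate 1 deviated together (correlation 0.6), whereas those of replicates 2 and 3 each correlated better with a library of the other number. With the replicate number as a block 1077 genes (6.59%) were called in testis, 443 of the 8336 in the same direction and 140 in the opposite one. Those 443 were 5.31% of the round spermatid genes and 41.1% of the testis genes. With offset and block 308 were called in the same direction and 181 in the opposite one.

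The trend was opposite in the comparison made on a single *Ctcf* allele. CM round spermatids (n = 3) compared with CTCF HET (n = 3), which also differ by the loss of *Boris*, had a GC correlation of -0.276 over 14765 genes. EdgeR called 0 of 15337 genes there (0%), with 3332 at an unadjusted p under 0.05. DESeq2 called 1576 (10.3%), and of the genes DESeq2 called in BORIS KO round spermatids 110 were called in the same direction and 822 in the opposite one. *Ctcf* itself was at 176, 48.4 and 39.8 CPM in the libraries labelled CM and at 33.7, 22.2 and 25.2 CPM in those labelled CTCF HET (1.7, unadjusted p = 0.0179, adjusted p = 0.203). It thus lay higher in every CM library than in every CTCF HET library, although both carry a single *Ctcf* allele by their labels, and CM replicate 1 lay far above all others. *Rltpr*, which starts just past the end of *Ctcf* on chromosome 8, was at 62.2 to 79.1 CPM in CTCF HET and 30.5 to 58.4 CPM in CM. In WT and BORIS KO round spermatids it was at 0.618 to 1.19 CPM and 1.61 to 2.01 CPM, and the reason was not tested. The ranges of *Ctcfl* met, at 1.12 to 2.61 CPM in CM and 2.61 to 3.48 CPM in CTCF HET. Directions drawn from these libraries rest on their labels.

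A small group of genes changed alike in all 3 comparisons of BORIS KO with WT. Of 3614 genes called in both round spermatid fits and tested throughout, 94 (27 higher, 67 lower) were called in the same direction in spermatocytes and, with the block, in whole testis, each with and without the offset. How many of the 3614 were called in opposite directions was not counted, nor was an overlap expected without a shared effect computed. For scale, the fits with offset and block called 308 round spermatid genes alike in testis and 181 in the opposite direction. Of 93 of the 94 tested in CM against CTCF HET, 57 had the same sign there. The share of all genes with the same sign was not computed. A BORIS peak lay within 1 kb of a start of 24 of the 94 (25.5%), beside 18.5% of all tested genes with a position. By direction these were 6 of 27 higher (22.2%) and 18 of 67 lower genes (26.9%). The 94 were drawn from genes called alike in both round spermatid fits. Of those genes, 403 of 1879 higher and 372 of 1964 lower had such a peak. The difference in shares was not tested. The genes of this group named next were chosen after their values were seen.

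*Ccdc110* was among them. In whole testis it had 95.5, 56.8 and 105 CPM in WT and 43.7, 40.5 and 47.4 CPM in BORIS KO (-0.93 ± 0.15 with the block, adjusted p = 0.0135, and -0.97 with adjusted p = 0.203 without it). In spermatocytes it had 507 and 578 CPM in WT and 178 to 201 CPM in BORIS KO (-1.49 ± 0.08, adjusted p = 3.81e-07), and in CM 387 to 793 CPM against 786 to 1066 CPM in CTCF HET, groups that overlapped (-0.7, unadjusted p = 0.0425). *Spo11* was lower in all of these as well: from 58 to 68.5 CPM to 36.5 to 42.5 CPM in testis (-0.69 ± 0.12 with the block, adjusted p = 0.017, against 0.2 without it), from 153 and 167 CPM to 111 to 119 CPM in spermatocytes (-0.48 ± 0.06, adjusted p = 4.41e-05), and from 60.9 to 63.5 CPM in CTCF HET to 15.9 to 24.7 CPM in CM (-1.55 ± 0.22, unadjusted p = 0.000132, adjusted p = 0.203). The *Spo11* change was larger in round spermatids than in spermatocytes by -2.07 ± 0.14 (adjusted p of the interaction = 4.88e-05).

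*B3galtl*, a glucosyltransferase gene, was higher throughout. Its levels were 4.43, 4.37 and 4.33 CPM in WT and 13.6, 13.2 and 7.33 CPM in BORIS KO round spermatids (1.38 ± 0.23, adjusted p = 0.000956, offset 1.82), 11.1 and 12.2 CPM and 25.6 to 26.5 CPM in spermatocytes, 0.953 to 1.56 CPM and 3.06 to 10.6 CPM in testis, and 0.999 to 3.27 CPM in CTCF HET and 10.3 to 14.7 CPM in CM. None of these groups overlapped. *Fam124a* was lower throughout, at 15.6, 13 and 15.6 CPM in WT and 2.04, 1.86 and 6.2 CPM in BORIS KO round spermatids (-2.13 ± 0.42, adjusted p = 0.00217, offset -2.39), and at 4.48 to 14.1 CPM in CTCF HET and 3.44 to 4.11 CPM in CM. The starts of these 3 genes, *Ccdc110*, *B3galtl* and *Fam124a*, each carried a BORIS peak under a CTCF peak, and their matches to the core, in capitals, are shown as the letters under BORIS at genes that changed in round spermatids, spermatocytes and testis. Among the other genes of the group with a BORIS peak, one under a CTCF peak also lay at *Spo11*, *Hddc3*, *Ammecr1l* and *Hsp90aa1*. The BORIS heights there were 16, 385, 105 and 72. The peak of *Hsp90aa1* held a match, which is not shown, and the remaining genes with a peak are not described. No match lay within the peak of *Spo11* or *Hddc3*, and that of *Ammecr1l* was not searched.
Ccdc110, minus strand, chr8:47020235-47020254, intron: catcCCGCCAGGGGGCaggc
Ccdc110, minus strand, chr8:47020301-47020320, intron: gtggCCACCAGAGGGCgcgc
B3galtl, plus strand, chr5:150480782-150480801, upstream: ccggCCGCCAGAGGGCgcag
B3galtl, minus strand, chr5:150481062-150481081, intron: ggcgCCACTAGAGGGCgctg
Fam124a, plus strand, chr14:63174573-63174592, untranslated exon: gcggCCGCGAGAGGGCgcgg
In *Ccdc110* and *B3galtl* a pair of matches lay within the same peak. A match is a description of the letters, in mm9, and not a test of binding or of a role in the change.

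*Nid2* and *Ammecr1l* were called in whole testis even without the block. *Nid2*, a basement membrane protein gene, was at 7.39, 9.76 and 8.25 CPM in WT round spermatids and 30.5, 23.1 and 20.1 CPM in BORIS KO (1.54 ± 0.18, adjusted p = 0.000142, offset 0.89). In testis it rose from 7.47 to 10.3 CPM to 39.1 to 51.8 CPM (2.29 ± 0.2, adjusted p = 0.00891, with the block 5.59e-05). *Ammecr1l* was at 314, 380 and 350 CPM in WT round spermatids and 128, 170 and 111 CPM in BORIS KO (-1.35 ± 0.15, adjusted p = 0.000117, offset -1.29), and fell in testis from 78.9 to 138 CPM to 29.5 to 30.1 CPM (-1.87 ± 0.22, adjusted p = 0.0347, with the block 0.00057). Among the other calls of the group, *Nmnat3*, of NAD synthesis, *Hddc3* and *Hapln1*, a hyaluronan link protein gene, had round spermatid changes of 1.95, 1.44 and -2.45 (offset 2.1, 1.09 and -1.32), and of -0.54, -0.07 and 0.2 between CM and CTCF HET, where none had the sign it had in BORIS KO.

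**Figure D4:**
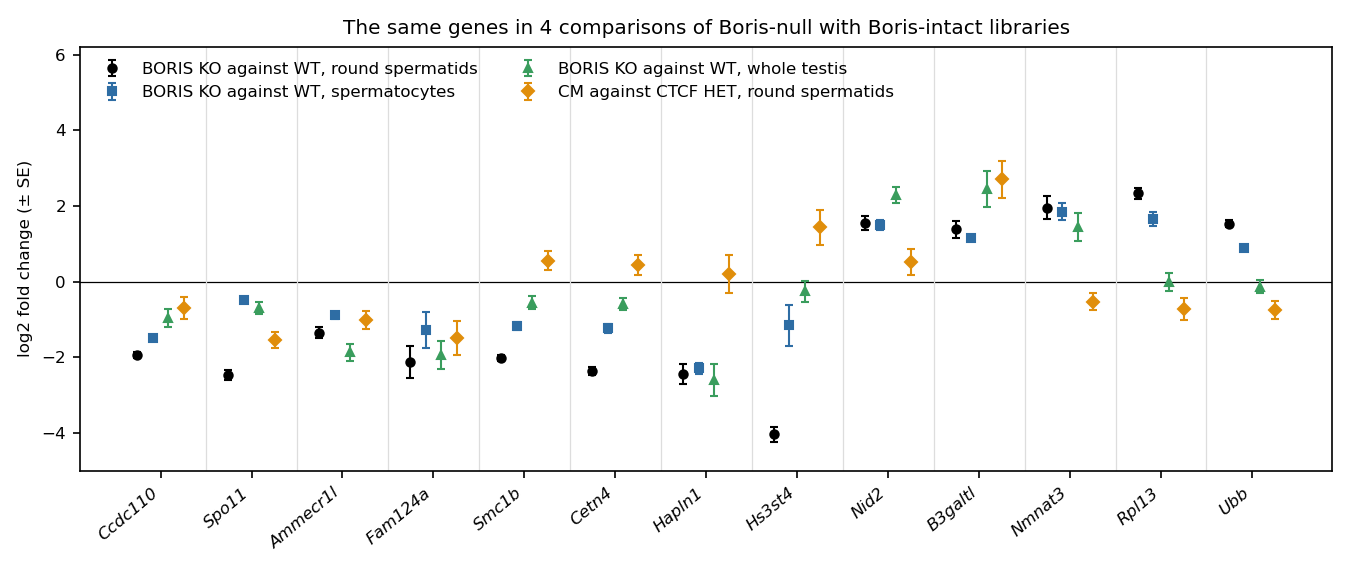
Log2 fold change ± SE of 13 named genes in 4 comparisons of libraries without *Boris* with libraries that have it: BORIS KO against WT round spermatids (black), spermatocytes (blue) and whole testis (green, without the block), and CM against CTCF HET round spermatids (orange). From *Ccdc110* to *Fam124a* and for *Nid2* and *B3galtl* all 4 values share a sign, whereas for *Smc1b*, *Cetn4*, *Hapln1*, *Hs3st4*, *Nmnat3*, *Rpl13* and *Ubb* the orange value has the opposite sign to the black.

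Many of the largest round spermatid changes were not called in whole testis. *Smc1b* had -0.56 there (adjusted p = 0.219, with the block 0.0386), *Hs3st4* -0.26 (adjusted p = 0.644), *Rpl13* -0.02 (adjusted p = 0.976) and *Ubb* -0.14 (adjusted p = 0.711). In CM against CTCF HET, *Smc1b* had 0.55, *Hs3st4* 1.43, *Rpl13* -0.72 and *Ubb* -0.75, each opposite in sign to the BORIS KO value. The difference between the effects in round spermatids and spermatocytes was tested as an interaction, which called 2213 of 16519 genes (13.4%), or 1487 of 15833 (9.39%) with the offset. *Hs3st4* changed more in round spermatids by -2.95 ± 0.64 (adjusted p = 0.0124), with a spermatocyte change of -1.16 that did not pass (adjusted p = 0.0879). Its spermatocyte levels were near the floor, at 0.424 and 0.119 CPM in WT and 0.0959 to 0.175 CPM in BORIS KO, so that change is poorly measured. *Gata6* changed more by -2.38 ± 0.28 (adjusted p = 0.00206) and *Fam83e* by -2.21 ± 0.33 (adjusted p = 0.00365), beside spermatocyte values of -0.14 and 0.24.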

How the data were processed

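The deposited expression values are unnormalized counts of reads by gene symbol, made by the authors from poly(A) RNA of purified cells (single-end reads aligned to mm9 with STAR) and from whole testis RNA depleted of ribosomal RNA (TopHat2 and Bowtie2). The counting tool, its annotation and its use of strand are not given in the sources used here. The deposited peak lists hold a height per CTCF or BORIS peak, a signal whose normalization is not stated, and a MACS score per Pol2 or H3K4me3 peak. Peaks were used by position, with the listed height.

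Counts were analysed in R 4.3.3 with edgeR 4.0.16, by TMM scaling, a low-count filter (filterByExpr, minimum count 10, minimum total 15) and the robust quasi-likelihood F test, with Benjamini-Hochberg adjustment over all genes tested and a threshold of 0.05. The fit held the 6 round spermatid libraries alone. A further fit, chosen after seeing the data, carried an offset for each library's trend on exon GC content and length (splines with 5 degrees of freedom) over the 14919 tested genes matched by symbol to GENCODE vM1 on mm9. Printed levels are CPM, and their SD and n refer to the libraries of a genotype. The interaction of genotype with cell type was fitted on round spermatids and spermatocytes together. Scripts were tested on simulated counts.

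Genes were named by a rule: *Ctcfl* and *Ctcf*, the genes the study names, those within 200 kb of *Ctcfl*, up to 12 of smallest p and 12 of largest fold in each direction, and up to 4 called members of each list. Genes outside it were chosen after their values were seen. The comparison, the rule and the gene lists were chosen with earlier results of these data known. Alternatives were RLE scaling, DESeq2 1.42.0, a joint fit of all 4 genotypes, omission of the low-count filter, a replicate block, stricter thresholds and the removal of each library in turn. Whole testis libraries of the same replicate number deviated together (correlations of 0.6, 0.176 and 0.239, with -0.46 to 0.379 between different numbers, so that only replicate 1 correlated best with its own number). The hint of pairing thus rests on replicate 1. It comes from the data and is not stated in the labels, so the blocked values stand beside the unblocked ones. Peaks of the compound mutant were not used here.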

Additional observations from a re-analysis of the deposited data

Results flagged for a closer look

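The BORIS KO effect differed between round spermatids and spermatocytes, by edgeR's interaction test, for 2213 genes. Spermatocytes had 2 WT libraries and 3 BORIS KO libraries, and the GC trend was present in both cell types. Of the named genes, 10 differed by at least 1 on the log2 scale, and passed, both with and without the offset. Their differences are given as the round spermatid change minus the spermatocyte change. *Hs3st4* had -2.95 (adjusted p = 0.0124, offset -3.4), *Gata6* -2.38 (adjusted p = 0.00206, offset -2.82) and *Fam83e* -2.21 (adjusted p = 0.00365, offset -2.7), all high in GC and lower in BORIS KO round spermatids. In spermatocytes *Hs3st4* was near the floor, at 0.0959 to 0.424 CPM. *Spo11* had -2.07 (adjusted p = 4.88e-05, offset -1.92). The X-linked *Upf3b* had -1.91 (adjusted p = 0.00653, offset -1.56) and the X-linked *Stag2* -1.51 (adjusted p = 0.00354, offset -1.07). *Spaca7* had -1.48 (adjusted p = 0.00592, offset -1.17) and *Igf2* -1.12 (adjusted p = 0.0282, offset -1.6). In the other direction, *Rps14* had 1.06 (adjusted p = 0.0321, offset 1.02) and *Hnrnpa3* 1.86 (adjusted p = 0.0399, offset 2.37). Groups of 3 libraries were not tested for outlying samples.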

How the results depend on the processing

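The 8658 called genes (4162 higher, 4496 lower) became 5014 (2334 and 2680) with all 4 genotypes in one fit, 5609 with the GC and length offset (2763 lower), 4173 (2159 and 2014) at an adjusted p under 0.05 with a fold change over 2, and 2404 (1099 and 1305) at an adjusted p under 0.001 with that fold change. The offset, alone or with a library left out or a block, was chosen after seeing the data. Leaving out each library gave 6953 to 10178 called genes, 3287 to 4929 higher and 3642 to 5249 lower, with the most calls without WT replicate 1. RLE scaling, DESeq2 and no low-count filter kept each count within 1.5 times.

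The round spermatid replicate numbers paired the libraries weakly at most (same-number correlations of 0.107, 0.0435 and 0.033, though each library correlated best with its own number), and the replicate block gave 8719 calls. *Malat1*, *Kcnq1ot1* and *Tnp2* missed the threshold with it, and *Ctcf* passed (-0.399, adjusted p = 0.0413).

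*Ctcfl* missed the threshold with no low-count filter (-0.65), with all 4 genotypes (-0.74) and, at -0.78, where a fold change over 2 was required, and it ranged from -0.94 to -0.52 with a library left out, with the call lost without WT replicate 2 or any BORIS KO library. *Ctcf* ranged from -0.59 to -0.17, and passed without WT replicate 3.

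Of genes called in the same direction in whole testis, 5 became 131 with DESeq2, 8 with no low-count filter, 443 with the replicate block, 2 with the offset and 308 with both. In spermatocytes 6104 became 3530 with the offset, and for CM against CTCF HET 0 became 110 with DESeq2. Of 146 called genes under the naming rule with an offset value, 10 turned in sign and 1, *Ybx2*, was also called with its new sign. Of those described in the text, *Ybx2* turned to -0.398, *Mfi2* to -0.353 and *Tmsb10* to -0.12. Without WT replicate 1 as well, *Ybx2* had -0.52, *Tmsb10* -0.23 and *Pmepa1* -0.0757. The cause of these moves was not tested.

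A GC trend of whole libraries and the genotype cannot be told apart, and the offset also removes any effect of genotype that follows GC. With 3 libraries a group, and no statement of separate preparations, p-values measure the spread between these libraries only. Levels of genes at a few CPM or less rest on few counts.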

Other observations

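Some gene groups have not been described above. Of 19 energy metabolism isozymes of germ cells, 5 were higher and 3 lower, and 10 and 5 with the offset. Cholesterol synthesis genes were called both ways, with 7 of 21 higher and 5 lower, and 4 of 20 and 2 with the offset. *Cyp51*, a demethylase of that pathway, fell from 73.1, 84.3 and 91.8 CPM to 26.9, 32.4 and 43.2 CPM (-1.28, adjusted p = 0.000286, offset -0.81), and *Lss*, the lanosterol synthase, rose from 4.42 to 4.45 CPM to 8.23 to 8.87 CPM (0.95, adjusted p = 0.000427, offset 0.94). Of 24 imprinted genes, 4 were higher and 6 lower, and 4 and 9 of 23 with the offset. *Slc22a18*, an imprinted transporter gene, rose from 8.07, 5.98 and 4.98 CPM to 23.3, 22.7 and 18.3 CPM (1.75, adjusted p = 0.000103, offset 0.95).

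Of 17 immediate early and stress-response genes, 7 were higher and 1 lower, but with the offset 1 was higher and 3 were lower. *Klf2*, a zinc finger factor with 61.6% GC, rose by 1.24 (adjusted p = 0.000305), with an offset value of 0.08 that did not pass (adjusted p = 0.658). The lower gene was *Klf4*, at 353, 345 and 337 CPM in WT and 267, 257 and 255 CPM in BORIS KO (-0.41, adjusted p = 0.00143, offset -1.05), although its exons hold 54.9% GC. Chromatin modifiers of spermatids had 10 of 29 higher and 11 lower, and ubiquitin and autophagy genes of spermiogenesis 10 of 27 higher and 13 lower, and each list had 5 higher and 7 lower with the offset. Over all genes tested 26.8% were higher and 29% lower, and with the offset 19.1% and 18.5%. Spermatogonial genes had 4 of 17 higher and 1 lower, and fatty acid desaturases and elongases 1 of 9 higher and 3 lower.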
